A study of Mus musculus with 10 samples.

Results

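Stretch-responsive and immediate early genes were compared between 2 regions of the mouse left ventricle, its lateral wall and its septum. The set was a list of 32 gene symbols, and 31 of them were found in the platform annotation, among 16504 named genes in all. They were read by 33 features, 2 each for Fos and Klf6 and 1 for each of the others. Gdf15, a secreted stress-induced member of the TGF-beta family, was not found under its symbol and was not analysed here. The rule matches gene symbols and uses no measured value, though the list was drawn up with earlier results of these data known.

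Immediate early genes are transcribed within minutes of a stimulus, without new protein synthesis, because the transcription factors that switch them on are already present in the cell. Many encode transcription factors themselves, such as the Fos and Jun proteins that pair to form AP-1, while others encode inhibitors that end the response or ligands that pass it to neighbouring cells. In heart muscle this programme is known for its quick and brief induction by stretch, pressure load and neurohormones. Their RNAs are mostly short-lived, so a level at 1 time reflects recent transcription.

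The dyssynchronous group was 4 mice, numbered 1, 3, 4 and 5, each kept as its own pair of septal and lateral RNA. The control was RNA of synchronous mice, combined into 1 septal and 1 lateral pool. Dyssynchrony means that regions of the ventricle contract out of step, and the study's design ties it to a pacemaker implant. Strain, sex, age, the duration of pacing, the number of mice in the pool and the heart rate at sampling are not given in the labels used here, and neither is whether the pool's mice carried a device.

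Both walls of a heart shared an array, one labelled with Cy3 and the other with Cy5, and a second array exchanged the dyes. This gave 10 arrays, 2 for each heart and 2 for the pool. Each value given is the log2 of the lateral over the septal signal, and it is below 0 where the septum is higher. Unless stated otherwise the value of a heart is the mean of its 2 arrays. The direction and the log base are likely rather than stated. Precision is limited by the number of arrays, and the pool was not replicated. In pieces of whole wall, fewer cells of a type and less RNA per cell cannot be told apart, and a ratio gives no level of a gene in either wall.

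No member passed the test for a wall difference in the dyssynchronous hearts. The largest septal means among members whose 4 hearts all lay on the septal side belonged to Ccn2, a secreted matricellular protein, at -0.50 ± 0.45, and to Fos at -0.40 ± 0.42 (SD, n = 4 hearts each). Ier5, an immediate early regulator of heat shock factor 1, had a smaller but steadier ratio of -0.36 ± 0.13. Egr2, a zinc-finger transcription factor, stood at -0.36 ± 0.33, Hbegf, a membrane-anchored EGF receptor ligand, at -0.26 ± 0.085, and Btg2, an anti-proliferative adaptor of the RNA deadenylation machinery, at -0.21 ± 0.042. Towards the lateral wall the highest mean of a member was that of Nr4a1, an orphan nuclear receptor, at 0.17 ± 0.18.

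At a Benjamini-Hochberg adjusted p under 0.05 in limma, 0 of 31 members and 0% of all 16504 genes passed for the wall difference. The lowest adjusted p of a member in limma was 0.797, against 0.643 for any gene. At an unadjusted p under 0.05, 3 members passed in limma, namely Ier5, Btg2 and Hbegf, all on the septal side, against a background of 5.66% of all genes. The 3 make up 9.68% of the members. An exact sign-flip test on 4 hearts cannot go below p = 0.125, so it could pass no single gene. For 24 of the 31 members the 95% interval of the mean lay within 1.5-fold in both directions. The other members were Fos, Egr2, Atf3, Myc, Maff, Ccn2 and Rcan1, whose intervals left room for a larger difference. Those intervals are not adjusted for the number of genes.

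Promoter sequences are shown for Ier5, Btg2 and Jun, 3 members whose 4 hearts all lay on the septal side, and for Fos, the gene that gave the family its name. They come from RefSeq on GRCm38.p6, run 5′ to 3′ on the gene's strand, and cover 250 bases before to 50 bases after the annotated start. Capitals mark matches, on either strand, to GC boxes (GGGCGG), a CRE (TGACGTCA), an EGR site (GCGNGGGCG) or a TATA box (TATAAA). The Ier5 window is chr1:155099587-155099886 on the minus strand, and that of Btg2 is chr1:134079106-134079405 on the minus strand. The window of Jun is chr4:95052173-95052472 on the minus strand, and that of Fos is chr12:85473640-85473939 on the plus strand.
Ier5: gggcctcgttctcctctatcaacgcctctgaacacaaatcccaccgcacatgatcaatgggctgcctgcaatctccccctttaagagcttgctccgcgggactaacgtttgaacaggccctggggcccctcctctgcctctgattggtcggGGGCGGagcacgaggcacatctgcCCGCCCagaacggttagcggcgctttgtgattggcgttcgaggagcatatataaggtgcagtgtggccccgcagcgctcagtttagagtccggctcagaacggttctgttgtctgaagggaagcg
Btg2: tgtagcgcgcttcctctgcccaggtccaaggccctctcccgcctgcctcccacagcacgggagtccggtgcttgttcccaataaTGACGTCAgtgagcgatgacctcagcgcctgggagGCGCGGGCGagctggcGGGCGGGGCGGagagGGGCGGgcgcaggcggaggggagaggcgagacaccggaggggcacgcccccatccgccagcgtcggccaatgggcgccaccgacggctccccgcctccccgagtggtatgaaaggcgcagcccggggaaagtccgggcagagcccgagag
Jun: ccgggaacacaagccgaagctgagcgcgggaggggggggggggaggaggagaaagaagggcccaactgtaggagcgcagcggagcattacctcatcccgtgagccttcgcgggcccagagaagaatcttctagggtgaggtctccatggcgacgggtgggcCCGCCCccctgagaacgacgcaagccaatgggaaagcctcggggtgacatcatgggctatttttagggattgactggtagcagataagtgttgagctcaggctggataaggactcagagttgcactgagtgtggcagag
Fos: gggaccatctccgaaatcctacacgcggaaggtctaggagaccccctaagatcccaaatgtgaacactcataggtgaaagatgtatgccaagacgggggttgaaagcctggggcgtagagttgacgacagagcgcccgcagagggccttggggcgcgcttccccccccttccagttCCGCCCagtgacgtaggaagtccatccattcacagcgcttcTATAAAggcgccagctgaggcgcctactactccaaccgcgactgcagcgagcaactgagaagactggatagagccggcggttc

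Ier5 held GC boxes at -99 to -94 and at -75 to -70, counted from the annotated start. Btg2 held a CRE, the element bound by CREB and ATF proteins, at -166 to -159, an EGR site at -131 to -123, and GC boxes starting at -115, -110 and -100, the first pair sharing 1 base. Jun held 1 GC box at -89 to -84. Fos held a GC box at -74 to -69 and a TATA box at -33 to -28. The letters are a description and not a measure of binding.

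Of the 31 measured members, 23 had an entry in the promoter table, 3 of them with several starts, and a match in any window of a gene was counted. A GC box was present in 21 of the 23 (91.3%), against 35.7% of all 32851 promoters. An EGR site was present in 10 of the 23 (43.5%), against 5.55% of all. An EGR site can share its last bases with a GC box, so these counts are not independent. A CRE was found in Dusp1, Btg2, Maff and Rcan1, 17.4% of the members against 1.79% of all promoters. The shares of all promoters count each window by itself. Of the members with a match, 18 for the GC box, 9 for the EGR site and 2 for the CRE had 1 start. The CArG box, which serum response factor binds, was found in Egr2 and Zfp36, against 1.63% of all promoters. A TATA box was found in 4 members (13.6% of all), the letters GGAATG of a TEAD site in 4 (14.7% of all), and the AP-1 site TGANTCA in Rcan1 alone (7.81% of all). Absence of a match says only that these letters were not in this window.

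**Figure D1:**
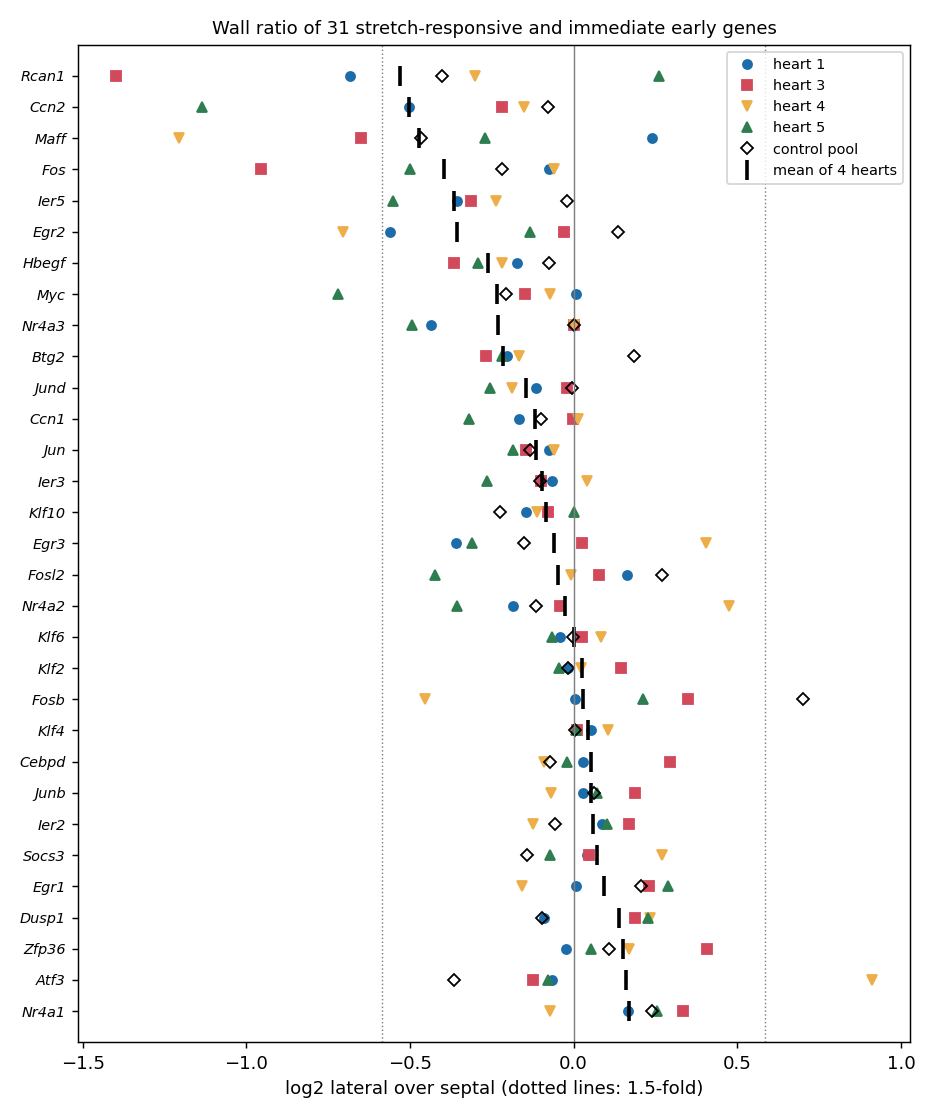
The log2 lateral/septal ratio of each of the 31 members (rows) in dyssynchronous hearts 1, 3, 4 and 5 and in the control pool, each point the mean of 2 dye-swapped arrays. Most points lie near 0, Ier5, Hbegf and Btg2 have 4 hearts close together below 0, and the points of Rcan1 and Maff are spread widest.

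Among the subunits of AP-1, the dimeric factor that binds TGANTCA-type sites, Fos varied most. Its ratio was -0.076, -0.95, -0.061 and -0.50 in hearts 1, 3, 4 and 5, against -0.22 in the pool. Hearts 3 and 5 were well below 0 while hearts 1 and 4 were near it, and the pool lay between them. The mean was -0.40 ± 0.42 (SD, n = 4), with a 95% interval of -0.87 to 0.078 and an adjusted p of 0.797 in limma. Both features of Fos had negative means, but they differed in size. One averaged -0.14 over the hearts, with -0.18 in heart 3 and -0.19 in heart 5, while the other averaged -0.65, with -1.73 in heart 3 and -0.80 in heart 5. The single arrays of Fos ran between -1.66 and 0.85, and 2 of them held an exact 0 on at least 1 feature. The low ratio of heart 3 therefore rested mostly on 1 of 2 features. That of heart 5 rested on 1 of 2 arrays. With lateral RNA in Cy3 the features of heart 5 were at -1.42 and -1.60. With lateral RNA in Cy5 they were at 1.03 and an exact 0. Without heart 3 the mean ratio of Fos was -0.21.

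Jun, the main DNA-binding partner of Fos, was close to 0 but on the septal side throughout. Its ratio was -0.074, -0.14, -0.058 and -0.18 in hearts 1, 3, 4 and 5, against -0.13 in the pool. All 8 heart arrays and both pool arrays lay below 0, and the hearts and the pool overlapped. The mean of the hearts was -0.12 ± 0.059 (SD, n = 4), a 1.08-fold difference, with a 95% interval of -0.26 to 0.025 and an adjusted p of 0.797 in limma.

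Jund, a Jun family member that is present without stimulation in many tissues, had ratios of -0.11, -0.022, -0.19 and -0.25 in the hearts, against -0.0055 in the pool. The 4 hearts lay below 0 and below the pool, heart 3 by little, with 7 of 8 heart arrays on the septal side. The mean was -0.14 ± 0.10 (SD, n = 4), with a 95% interval of -0.31 to 0.021 and an adjusted p of 0.797 in limma. Junb, which can restrain Jun, showed no common side, at 0.027, 0.19, -0.068 and 0.071 in the hearts, against 0.062 in the pool.

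Fosb, a Fos relative, had the largest ratio of any member in the control pool. It stood at 0.0040, 0.35, -0.45 and 0.21 in the hearts, against 0.70 in the pool. The hearts fell on both sides of 0 and all lay below the pool, whose 2 arrays differed, at 1.19 and 0.21. The mean of the hearts was 0.028 ± 0.35 (SD, n = 4), with an adjusted p of 0.974 in limma. Hearts minus pool came to -0.67, with a 95% interval of -1.57 to 0.22 and an adjusted p of 1 in limma. Fosl2, another Fos relative, was at 0.16, 0.079, -0.0085 and -0.42 in the hearts, against 0.27 in the pool, so that heart 5 set it apart.

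Atf3, a bZIP factor induced by many stresses, was near 0 in every heart but 1. Its ratio was -0.065, -0.12, 0.91 and -0.079 in hearts 1, 3, 4 and 5, against -0.37 in the pool. Heart 4 was high on both of its arrays, at 1.46 and 0.37, which is the only member-by-heart value beyond 1.5-fold on the lateral side. The mean was 0.16 ± 0.50 (SD, n = 4), with a 95% interval of -0.40 to 0.72 and an adjusted p of 0.864 in limma. Without heart 4 the mean was -0.089. Maff, a small Maf protein that pairs with other bZIP factors, scattered more widely still, at 0.24, -0.65, -1.20 and -0.27 in the hearts, against -0.47 in the pool.

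The EGR proteins are zinc-finger factors that bind GC-rich sites. Egr1, the most studied of them, gave 0.0076, 0.23, -0.16 and 0.29 in hearts 1, 3, 4 and 5, against 0.21 in the pool. Heart 4 was on the septal side, hearts 3 and 5 on the lateral side, and the pool lay within their range. The mean was 0.092 ± 0.21 (SD, n = 4), with a 95% interval of -0.16 to 0.35 and an adjusted p of 0.836 in limma. It moved to 0.046, 0.18 and 0.027 without hearts 3, 4 and 5 in turn.

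Egr2 had ratios of -0.56, -0.029, -0.70 and -0.13 in the hearts, against 0.13 in the pool. All 4 hearts lay below 0 and below the pool, but hearts 1 and 4 carried the mean of -0.36, and in both the 2 arrays disagreed. Heart 1 gave -1.22 with lateral RNA in Cy5 and 0.096 with the dyes exchanged, and heart 4 gave 0.58 and -1.99. In all, 4 of 8 heart arrays were on the septal side. The 95% interval ran from -0.73 to 0.018, with an adjusted p of 0.797 in limma. Egr3 gave -0.36, 0.027, 0.40 and -0.31 in the hearts, against -0.15 in the pool, with no common side.

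The KLF factors, also zinc-finger proteins, were among the flattest members. Klf2, known for its induction by fluid shear in endothelium, lay between -0.045 and 0.15 in the hearts, against -0.018 in the pool. Klf4 lay between 0.0088 and 0.11 in the hearts, against 0.0040 in the pool, and was the single member on the lateral side in all 4 hearts. Klf6 lay between -0.066 and 0.083 in the hearts, against -0.0030 in the pool, and its 2 features averaged -0.028 and 0.030. Klf10, a TGF-beta-inducible repressor, lay between -0.14 and -0.00017 in the hearts, against -0.22 in the pool. The SD over the hearts was under 0.1 for each of these 4 genes.

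The NR4A genes encode orphan nuclear receptors whose activity is set largely by how much of them is made. Nr4a1 had ratios of 0.17, 0.33, -0.073 and 0.26 in hearts 1, 3, 4 and 5, against 0.24 in the pool. It was higher in the lateral wall in 3 of 4 hearts, on 7 of 8 heart arrays and in the pool, so that hearts and pool overlapped. The mean was 0.17 ± 0.18 (SD, n = 4), with a 95% interval of -0.058 to 0.40 and an adjusted p of 0.797 in limma. Nr4a3 had a ratio of 0 in the pool and in hearts 3 and 4, with -0.44 in heart 1 and -0.49 in heart 5, and 6 of its 10 arrays held an exact 0, whose meaning is not stated. Its mean of -0.23 ± 0.27 had an adjusted p of 0.797 in limma and was -0.15 without heart 5. Nr4a2 gave -0.18, -0.041, 0.47 and -0.36 in the hearts, against -0.12 in the pool.

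Of the other transcription factors, Myc, a driver of growth and ribosome production, was at 0.0063, -0.15, -0.072 and -0.72 in the hearts, against -0.21 in the pool. Heart 5 stood well below the other hearts, and without it the mean of -0.23 was -0.071. Cebpd, an acute-phase bZIP factor, gave 0.030, 0.29, -0.090 and -0.022 in the hearts, against -0.072 in the pool.

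Ier5 had the lowest p of the members for the wall difference in limma. Its ratio was -0.36, -0.31, -0.24 and -0.55 in hearts 1, 3, 4 and 5, against -0.021 in the pool. All 4 hearts lay below the pool, and all 8 heart arrays were on the septal side, between -0.63 and -0.23. The 2 pool arrays fell on either side of 0, at -0.12 and 0.074. The mean of the hearts was -0.36 ± 0.13 (SD, n = 4), 1.29-fold higher in the septal wall, with a 95% interval of -0.56 to -0.17. Its unadjusted p was 0.00525 and its adjusted p 0.797 in limma. Over the alternative settings the adjusted p in limma ran from 0.0693, in a fit to single arrays with each heart as a block and a term for dye, to 0.934. Hearts minus pool came to -0.34, with a 95% interval of -0.77 to 0.086 and an adjusted p of 1 in limma.

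The other IER genes did not share this. Ier2, a nuclear regulator induced by growth factors, gave 0.087, 0.17, -0.12 and 0.10 in the hearts, against -0.058 in the pool. Ier3, a regulator of survival signalling, gave -0.065, -0.10, 0.042 and -0.26 in the hearts, against -0.10 in the pool. Neither had 4 hearts on 1 side.

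**Figure D2:**
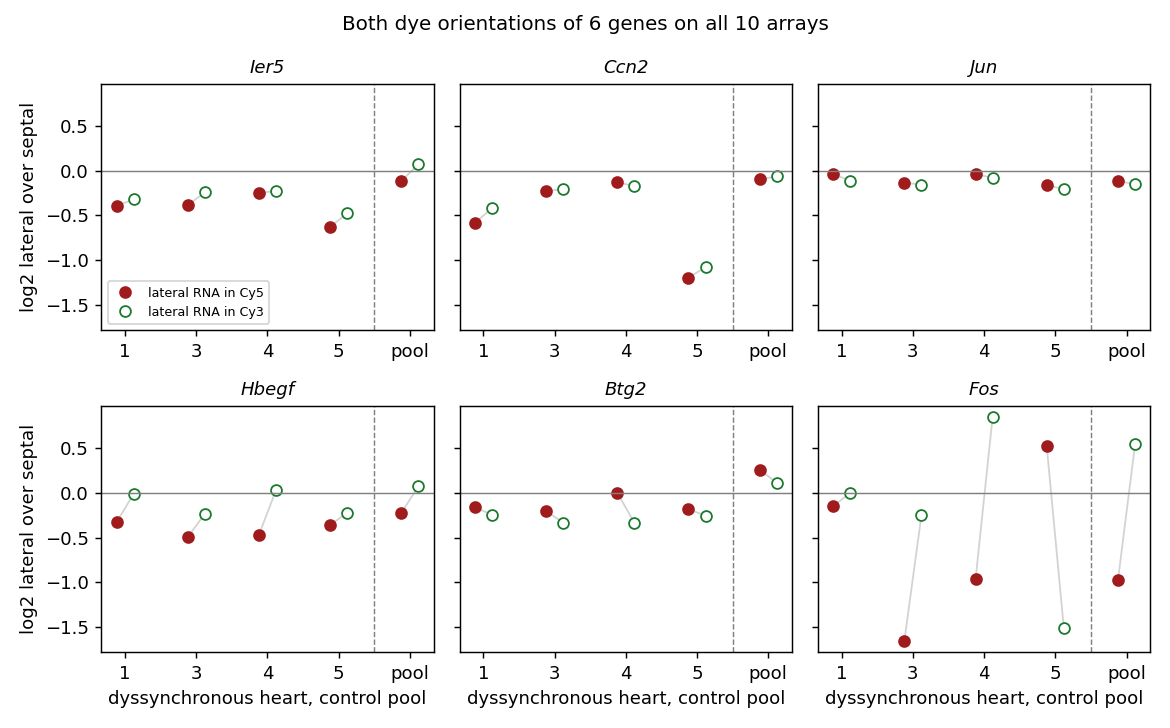
Single-array log2 lateral/septal ratios of Ier5, Ccn2, Jun, Hbegf, Btg2 and Fos in hearts 1, 3, 4 and 5 and in the pool, with the dye that carried the lateral RNA given by the marker. Both arrays of every heart lie below 0 for Ier5, Ccn2 and Jun, while the arrays of Fos in hearts 4 and 5 lie on opposite sides of 0.

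Several members encode proteins that end the response. Btg2 had the narrowest spread of the septal genes. Its ratio was -0.20, -0.27, -0.17 and -0.22 in hearts 1, 3, 4 and 5, against 0.18 in the pool. Of the heart arrays, 7 of 8 lay below 0 and the last, in heart 4, at 0.00086, whereas both pool arrays lay above 0, at 0.26 and 0.11. The mean was -0.21 ± 0.042 (SD, n = 4), 1.16-fold higher in the septal wall, with a 95% interval of -0.35 to -0.082. The adjusted p was 0.797 in limma and ran from 0.162 to 0.934 over the alternative settings. Hearts minus pool came to -0.40, with a 95% interval of -0.70 to -0.10, an unadjusted p of 0.0192 and an adjusted p of 0.956 in limma. It was the only member with an unadjusted p under 0.05 in limma for that difference.

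Dusp1, a phosphatase that inactivates p38, JNK and ERK, gave -0.090, 0.19, 0.23 and 0.23 in the hearts, against -0.096 in the pool. Hearts 3, 4 and 5 lay close together on the lateral side, and heart 1 lay beside the pool. That side was carried by 1 dye orientation, since the hearts averaged 0.36 with lateral RNA in Cy5 and -0.078 with lateral RNA in Cy3. The mean was 0.14 ± 0.15 (SD, n = 4), with a 95% interval of -0.070 to 0.35 and an adjusted p of 0.797 in limma. Without heart 1 it was 0.22. Hearts minus pool came to 0.24, with a 95% interval of -0.23 to 0.70 and an adjusted p of 1 in limma.

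Zfp36, which binds AU-rich elements and speeds decay of cytokine and early-response RNAs, gave -0.022, 0.41, 0.17 and 0.052 in the hearts, against 0.11 in the pool. Socs3, the feedback inhibitor of gp130 signalling, gave 0.041, 0.047, 0.27 and -0.071 in the hearts, against -0.14 in the pool. Rcan1, a calcineurin inhibitor that calcineurin itself induces, gave -0.68, -1.40, -0.30 and 0.26 in the hearts, against -0.40 in the pool. Rcan1 had the widest spread of the set, 0.70 (SD, n = 4), and its dye effect was as large as its wall mean. It averaged 0.017 with lateral RNA in Cy5 and -1.08 with lateral RNA in Cy3, with -2.73 on 1 array of heart 3.

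Among the secreted products, Ccn2 and its relative Ccn1 are matricellular proteins and textbook targets of YAP and TEAD. Ccn2 had ratios of -0.50, -0.22, -0.15 and -1.14 in hearts 1, 3, 4 and 5, against -0.080 in the pool. All 4 hearts lay below the pool, hearts 3 and 4 by little and heart 5 by most. The 2 arrays of each heart agreed closely, with -1.20 and -1.08 in heart 5 and -0.58 and -0.42 in heart 1, and the spread lay between hearts more than between dye orientations. The mean was -0.50 ± 0.45 (SD, n = 4), 1.42-fold higher in the septal wall, with a 95% interval of -1.0 to 0.0022 and an adjusted p of 0.797 in limma. Hearts minus pool came to -0.42, with a 95% interval of -1.55 to 0.70 and an adjusted p of 1 in limma. Without heart 5 the mean ratio of Ccn2 was -0.29.

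Ccn1, like Ccn2, had its lowest ratios in hearts 5 and 1, at a smaller size. It gave -0.17, -0.0013, 0.012 and -0.32 in the hearts, against -0.10 in the pool. Hearts 3 and 4 were at 0 and the pool lay within the hearts' range. The dye orientations differed, with arrays at -0.36 and 0.030 in heart 1 and at -0.52 and -0.11 in heart 5. The hearts averaged -0.29 with lateral RNA in Cy5 and 0.049 with lateral RNA in Cy3. The mean was -0.12 ± 0.16 (SD, n = 4), with a 95% interval of -0.33 to 0.092 and an adjusted p of 0.797 in limma. Without heart 5 it was -0.052.

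Hbegf had ratios of -0.17, -0.37, -0.22 and -0.29 in the hearts, against -0.076 in the pool. The 4 hearts lay close together and below the pool, but the dye orientations differed in size. With lateral RNA in Cy5 the hearts ran from -0.50 to -0.33, and with lateral RNA in Cy3 from -0.23 to 0.029. The mean was -0.26 ± 0.085 (SD, n = 4), 1.20-fold higher in the septal wall, with a 95% interval of -0.42 to -0.11. The adjusted p was 0.797 in limma and ran from 0.158 to 0.934 over the alternative settings. Hearts minus pool came to -0.19, with a 95% interval of -0.53 to 0.16 and an adjusted p of 1 in limma.

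Counted over the set, 9 of 31 members (29.0%) were on the septal side in all 4 hearts, against a background of 7.63% of all genes. They were Fos, Jun, Jund, Egr2, Ier5, Klf10, Btg2, Ccn2 and Hbegf, with Klf10 at -0.00017 in heart 5. Egr2 and Jund were at -0.029 and -0.022 in heart 3, and Egr2 was septal on 4 of 8 heart arrays. The value of Fos in heart 4 was the mean of arrays at -0.97 and 0.85. On the lateral side in all 4 hearts there was 1 member, Klf4, against 7.80% of all genes. On all 8 heart arrays 3 members, Jun, Ier5 and Ccn2, were on the septal side, against 0.685% of all genes, and 0 were on the lateral side, against 0.648%. Genes of a coordinated early response are not independent of each other, and these counts carry no test. With the ratios taken as already turned, 7 members were septal and 6 lateral in all 4 hearts, against 12% of all genes septal. The share of all genes lateral in that setting was not counted.

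Large differences were not frequent. No member was beyond 1.5-fold one way in all 4 hearts, against 0.109% of all genes. Of the 124 values that 31 members have in 4 hearts, 9 were beyond 1.5-fold (7.26%), 8 of them towards the septum, against 10.3% over all genes. In heart 1 that was Rcan1 alone, against 6.0% of all genes. In heart 3 it was Fos, Maff and Rcan1, against 12%, and in heart 4 Egr2, Atf3 and Maff, against 12%. In heart 5 it was Myc and Ccn2, against 11.2%, and in the pool Fosb, against 7.11%. Apart from Maff and Rcan1, each gene was beyond 1.5-fold in 1 heart only.

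**Figure D3:**
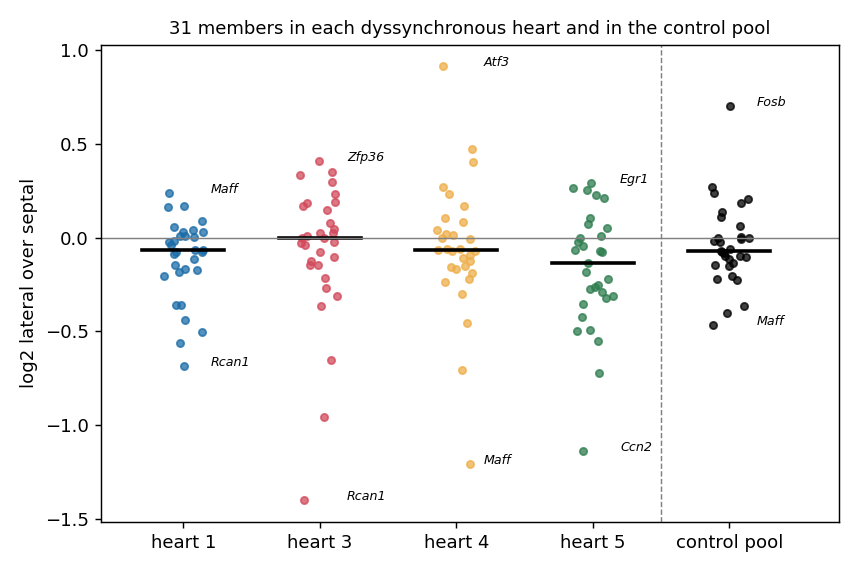
Distribution of the 31 members' log2 lateral/septal ratios in hearts 1, 3, 4 and 5 and in the pool, with points for members and lines for medians. The member median is lowest in heart 5, at -0.13, and nearest 0 in heart 3.

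The members varied among the animals. On the lateral side were 11, 14, 11 and 9 members in hearts 1, 3, 4 and 5, against 9 in the pool. These made up 35.5%, 45.2%, 35.5% and 29.0% of the members in the hearts, against 29.0% in the pool. Over all genes the lateral share was 47.5%, 45.5%, 49.3% and 49.1% in the hearts, against 49.0% in the pool. The member median was -0.065, -0.0013, -0.068 and -0.13 in hearts 1, 3, 4 and 5, against -0.072 in the pool, while the median of all genes was 0 or close to it in each. The pool's member median lay within the range of the 4 hearts. With the ratios taken as already turned, the member median was -0.035, -0.064, 0.043 and -0.067 in hearts 1, 3, 4 and 5, against -0.013 in the pool, so that heart 4 changed side. With lateral RNA in Cy3 alone the pool's median was 0. Heart 5 held the lowest of the 4 ratios for 14 of 31 members, where it held the lowest for 22.9% of all genes. Heart 4 held the highest for 14 members, where it held the highest for 27.9% of all genes. The median size of a member's ratio, regardless of side, was 0.25 in heart 5, against 0.15 for all genes there. It was 0.090, 0.15 and 0.15 in hearts 1, 3 and 4, against 0.10, 0.15 and 0.18 for all genes. In the pool it was 0.12, against 0.13 for all genes.

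Over the hearts' means, 18 members lay below 0 and 13 above, where 48.8% of all genes lay below 0. The median was -0.060 for the members, against 0.0026 for all genes. The median SD over the hearts was 0.17 for the members and 0.23 for all genes. The SD was under 0.1 for 7 members and above 0.3 for 10. The shares of all genes beyond those SD limits were not counted.

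Agreement between the 2 dye orientations limits every one of these values. The 2 arrays of an animal had the same sign for 12, 18, 15 and 17 members in hearts 1, 3, 4 and 5, against 13 in the pool. Over all genes that share was 33.7%, 33.7%, 35.8% and 39.3% in the hearts, against 35.7% in the pool, so for most genes the 2 orientations gave opposite sides or a value of 0. The dye effect, the mean of the ratios before they were turned by the dye labels, was larger than the wall mean for 14 members (45.2%) and for 66.6% of all genes. It was smaller than the wall mean for Ier5, Ccn2, Jun, Btg2 and Hbegf, at -0.048, -0.031, 0.022, 0.078 and -0.15. If the deposited ratios had already been turned to lateral over septal, those dye effects would be the wall ratios. Under that reading the ratios of Myl7, the atrial myosin light chain, would be dye effects instead. They were -5.18, -3.36, -3.53 and -6.10 in hearts 1, 3, 4 and 5, against -0.12 in the pool. Which reading holds was not tested.

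**Figure D4:**
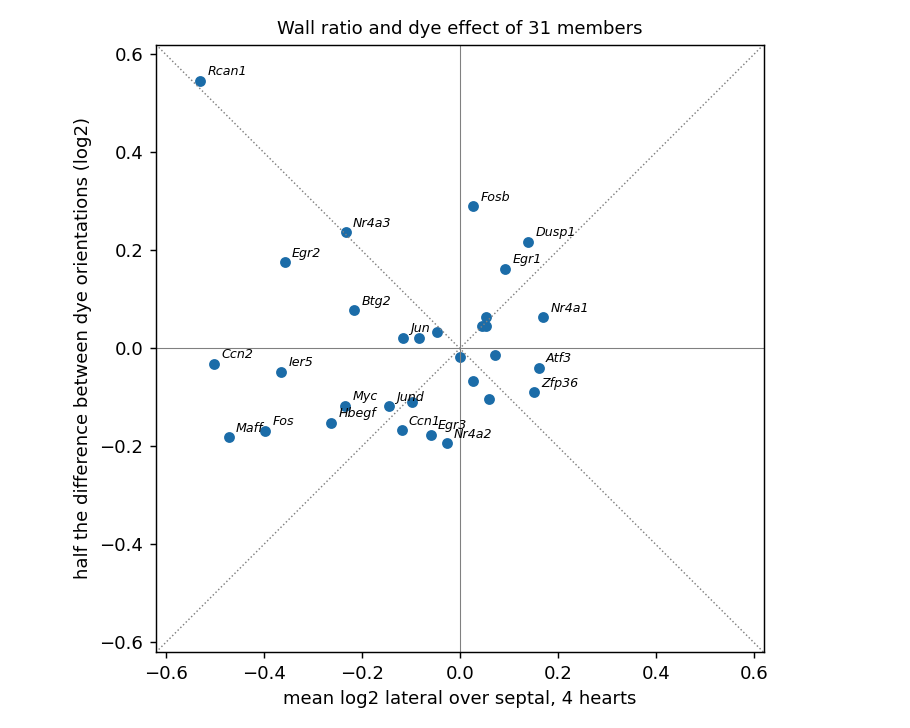
Mean log2 lateral/septal ratio over 4 dyssynchronous hearts (horizontal) against the dye effect on the log2 scale (vertical), 1 point per member, with dotted lines where the 2 are equal in size. Ier5 and Ccn2 lie far to the left near a dye effect of 0, and Rcan1 lies at a dye effect of 0.55.

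The second comparison asked whether the wall ratio in the dyssynchronous hearts differed from that in synchronous mice. The pool, as 1 replicate, was assumed to vary like 1 heart. At an adjusted p under 0.05 in limma, 0 of 31 members and 0% of all genes passed, and the lowest adjusted p of a member in limma was 0.956. At an unadjusted p under 0.05 in limma, 1 member passed, Btg2, against 4.74% of all genes. All 4 hearts lay below the pool for 8 members, Fosb, Fosl2, Jund, Egr2, Ier5, Btg2, Ccn2 and Hbegf, against 18.1% of all genes. All 4 lay above it for 5 members, Atf3, Klf4, Klf10, Dusp1 and Socs3, against 17.7% of all genes. The member median of the difference was -0.0077. For most members the interval was wide, for example -1.24 to 0.89 for Fos and -0.72 to 1.77 for Atf3, so that a difference from the pool could not be resolved.

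Among the 15 members described in full, differences from the pool were smallest for Jun, at 0.018 with a 95% interval of -0.30 to 0.33, and for Ccn1, at -0.018 with an interval of -0.49 to 0.45. Egr1 came to -0.11, with an interval of -0.69 to 0.46, and Nr4a1 to -0.068, with an interval of -0.58 to 0.44. Jund came to -0.14, with an interval of -0.51 to 0.23, Nr4a3 to -0.23, with an interval of -0.94 to 0.48, and Egr2 to -0.49, with an interval of -1.33 to 0.35. The adjusted p was 1 in limma for each of these.

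**Figure D5:**
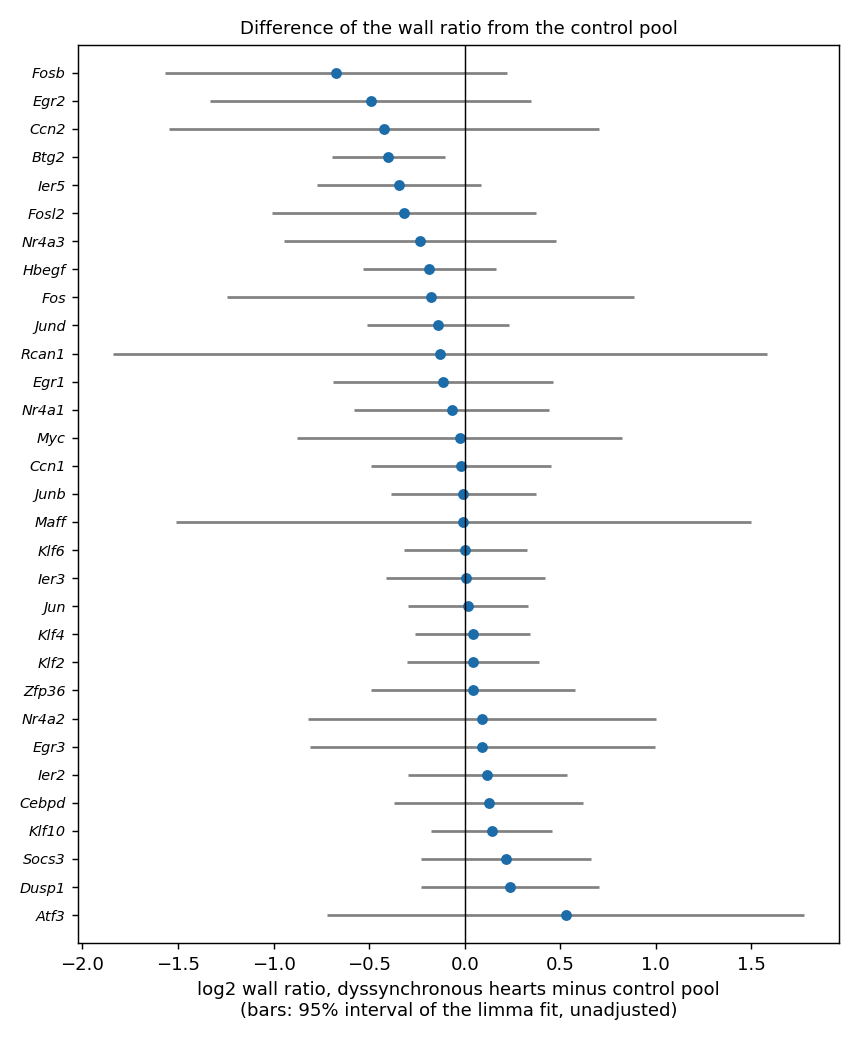
Difference between the mean of 4 dyssynchronous hearts and the control pool in log2 lateral/septal ratio for each of the 31 members, with bars for the unadjusted 95% interval from limma. Btg2, at -0.40, is the only member whose interval lies wholly on 1 side of 0.

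When single arrays were fitted with each heart as a block and a term for dye, 0 of 31 members passed at an adjusted p under 0.05 in limma, against 0.121% of all genes. The lowest adjusted p of a member there was that of Ier5, 0.0693 in limma. The arrays of a heart correlated at -0.049 after the dye term. Such a fit therefore takes 2 arrays of the same RNA as separate measurements, although they are not separate animals.

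Genes around the members were read from 10 lists with 136 measured genes, and 0 of them passed either test in limma. The list medians of the hearts' means ran from -0.075 to 0.086, against 0.0026 for all genes. Among 12 bZIP partners of AP-1 the median was 0.035, and Batf, an AP-1 factor of immune cells, was lateral in all 4 hearts at 0.84 ± 0.59, against 0.63 in the pool. Among 22 relatives of the EGR, NR4A, IER and KLF genes the median was -0.035. Ier5l, the closest relative of Ier5, was septal in all 4 hearts at -0.18 ± 0.13, against 0.43 in the pool. Among 14 MAP kinase phosphatases and feedback inhibitors the median was 0.0090, with 3 genes septal and 2 lateral in all 4 hearts. One of the septal genes was Dusp16, a JNK phosphatase, at -0.33 ± 0.15, against 0.088 in the pool (SD, n = 4).

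Among 16 regulators and muscle targets of serum response factor the median was -0.075, with 4 genes septal and 1 lateral in all 4 hearts. Ankrd1, a titin-binding stretch sensor, was at -0.67 ± 0.24 in the hearts, against -0.51 in the pool (SD, n = 4). Elk1, a partner of serum response factor, was at 0.45 ± 0.16, against 0 in the pool. Neither passed, with an adjusted p of 0.797 in limma for each.

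In the Hippo list of 13 genes the median was 0.029 and no gene had a common side in all hearts, while Ccn2, its best known target, did. Medians were 0.035 for 11 calcineurin and NFAT genes and 0.086 for 12 EGF receptor ligands and receptors. Egf, a ligand of the receptor that Hbegf also binds, was lateral in all 4 hearts at 0.70 ± 0.44, against 0.46 in the pool (SD, n = 4). Medians were -0.069 for 14 genes of gp130 signalling, -0.018 for 11 of the integrated stress response and -0.026 for 12 mechanosensitive channels and integrin genes. No direction was shared across a list.

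Marker genes of the cells that the walls could hold were read on the same arrays. Of 9 lists with 66 measured genes, 0 genes passed in limma, yet the atrial list stood far from 0. The 6 atrial markers had medians of -1.85, -0.82, -0.55 and -2.98 in hearts 1, 3, 4 and 5, against -0.060 in the pool, and 4 of 6 were septal in all 4 hearts. Myl7, the atrial myosin light chain, was at -5.18, -3.36, -3.53 and -6.10 in hearts 1, 3, 4 and 5, against -0.12 in the pool. Hearts 5 and 1, lowest for Myl7, were also the lowest for Ier5, Ccn2, Ccn1 and Nr4a3, the last with exact zeros in hearts 3 and 4. The same held for Egr3, Nr4a2, Klf2, Klf6, Zfp36 and Socs3. The share of all genes with these hearts lowest was not counted. Heart 5 by itself held the lowest ratio for 14 of 31 members, against 22.9% of all genes, and heart 1 for 4, against 21.5%. Other members ran otherwise, with hearts 3 and 5 lowest for Fos, Jun, Btg2 and Hbegf, hearts 4 and 5 for Jund, and hearts 1 and 4 for Egr2. The part of atrial tissue in the members' ratios was not tested. Without hearts 1 and 5, a choice made after seeing these values, the mean ratios were -0.27 for Ier5, -0.18 for Ccn2, -0.22 for Btg2, -0.29 for Hbegf, -0.10 for Jun and -0.11 for Jund. They were -0.51 for Fos and -0.37 for Egr2, but 0.0056 for Ccn1 and 0 for Nr4a3. Hearts 3 and 4, which remained, held Myl7 at -3.36 and -3.53.

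The other marker lists lay nearer 0. The 9 skeletal muscle markers had medians of 0.12, -0.025, -0.012 and -1.14 in the hearts, against -0.0050 in the pool, so that heart 5 stood apart there as well. The 9 fibroblast markers had medians of -0.12, 0.071, -0.096 and -0.23 in the hearts, against -0.060 in the pool, lowest in heart 5 like Ccn2. The 8 smooth muscle and pericyte markers had a median of 0.19 over the hearts' means, with 5 of 8 lateral in all 4 hearts, against 0.11 in the pool. That of 7 macrophage and monocyte markers was 0.14, against 0.083 in the pool. Medians were 0.0077 for 10 endothelial, 0.0041 for 6 neutrophil and 0.0026 for 8 ventricular cardiomyocyte markers, against 0.071, -0.027 and -0.12 in the pool. The median of 3 blood markers was -0.035, against 0.22 in the pool. The part of these cells in the members' ratios was not tested.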

How the data were processed

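RNA was extracted with TRIzol from left ventricular segments, per the labels. The deposited values are signed and are taken here as log10 ratios of Cy5 over Cy3 from Agilent Feature Extraction 7.5, named in the submitters' processing notes. Their log base, direction and dye normalization are not stated in the labels. Values were multiplied by 3.32 to log2 and turned to lateral over septal by the Cy5 label. Every array had a median near 0. Of 22393 features, 18218 had 1 symbol, 16 several and 4159 none. Features of a gene were averaged, then the 2 arrays of each heart and of the pool. Exact zeros, 7.69% to 15.1% of features per array, were kept, and the value -2 was taken as missing. No feature was left out for a dim signal.

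The 4 hearts and the pool were fitted in limma 3.58.1 (R 4.3.3) with eBayes, two-sided, with Benjamini-Hochberg adjustment over 16504 genes. The procedure was tested on simulated data. Hearts are separate animals, and the pool is 1 sample. All measured members are given. Described in full are the 10 with the smallest p for the wall difference, the 6 with the smallest p against the pool, and Fos, Egr1, Jun, Atf3, Ccn1 and Ccn2. Up to 2 genes of a list, by smallest p, may be named. The members and lists were chosen with earlier results of these data known. Alternatives were other centring and scaling, each dye orientation alone, values taken as already turned or as log2, zeros left out, single features, a heart block with a dye term, robust and unmoderated tests, other fold limits, the hearts alone and each heart left out. The exclusion of hearts 1 and 5 together was added after the data were seen.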

Additional observations from a re-analysis of the deposited data

Results flagged for a closer look

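Atf3 in heart 4, at a log2 lateral/septal ratio of 0.91, lay far from hearts 1, 3 and 5, which ran from -0.12 to -0.065, against -0.37 in the pool. Dusp1 in heart 1, at -0.090, lay far from hearts 3, 4 and 5, which ran from 0.19 to 0.23, against -0.096 in the pool. Among 31 sets of 4 hearts examined, 2 held a heart this far from the others, where chance gives about 1 in 20, or 1.55 sets. The wall ratio of Btg2 differed between the groups in direction, with hearts minus pool at -0.40, all 4 hearts on the septal side and the pool on the lateral side. The difference had an adjusted p of 0.956 in limma, so it did not pass.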

How the results depend on the processing

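Under every alternative run, 0 members passed the wall test or the test against the pool. Over all genes, 20 passed the wall test in limma with a heart block and a dye term, and against the pool 3 passed in that fit and 1 without moderation. Of 18 genes beyond 1.5-fold in every heart, the count was 123 with values taken as already turned, 151 with lateral RNA in Cy5 alone, 134 with it in Cy3 alone, 52 at a 1.3-fold limit, 4 at 2-fold, 1 with values read as log2, and 31 to 41 with a heart left out. The member median of -0.060 was 0.0056 without hearts 1 and 5, and ran from -0.13 to -0.033 with 1 heart left out, lowest without heart 4, and was -0.018 with values taken as already turned. With values taken as already turned, the wall ratio was 0.022 for Jun, 0.18 for Egr2, -0.039 for Atf3, 0.24 for Nr4a3 and 0.078 for Btg2, and the difference from the pool was 0.011 for Egr2, 0.048 for Ier5 and 0.0057 for Btg2. With lateral RNA in Cy3 alone the wall ratio was -0.26 for Fosb, -0.070 for Egr1, -0.078 for Dusp1 and 0.049 for Ccn1, and in Cy5 alone 0.0045 for Nr4a3. Without hearts 1 and 5 it was -0.052 for Fosb and 0.0056 for Ccn1. With 1 heart left out, Fosb ran from -0.079 to 0.19 and Atf3 from -0.089 to 0.26. The cause was not tested. In all, 596 member values kept their direction and side of the threshold or moved within the spread, 18 reversed and 8 moved. Part of the 596 could not change, since the block fit, the robust and unmoderated tests and the hearts alone leave a ratio as it was. For members not described in full, a change of side within the SD over hearts was not counted as reversed. Rcan1, for example, went from -0.53 to 0.017 with lateral RNA in Cy5 alone. The members septal in all 4 hearts, 9 against 1 lateral, were 7 against 2 with lateral RNA in Cy5 alone (9.52% of all genes septal), 6 against 4 with it in Cy3 alone (13.9%) and 7 against 6 with values taken as already turned (12%). Jun, Ier5 and Ccn2 were among them for each dye orientation alone, which restates that all 8 of their heart arrays were on the septal side. In these alternative settings the share of all genes lateral in all 4 hearts was not counted. Arrays of a heart correlated at -0.049 after a dye term. The single pool and the number of arrays limit what could be resolved, and signal over background was not analysed here.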
